A study of Mus musculus with 12 samples.

Results

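Atf4, Ddit3, Asns, Trib3, Chac1, Psat1, Phgdh, Shmt2, Mthfd2 and Ddit4 are genes of the integrated stress response, the programme run by the transcription factor ATF4. They were taken by symbol from the gene table, where each matched 1 gene ID, and they make up 10 of its 40481 genes. All 10 passed the filter of 1 CPM (a read count scaled to its library's total) or more in 3 or more libraries, which 14271 genes passed. Their levels were measured in cultured mouse hematopoietic stem cells (HSCs), in 12 libraries of bulk RNA in 4 groups of 3.

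The groups were wild-type (WT) HSCs from fetal liver at E14.5, HSCs carrying ETV6-RUNX1 (iE/R in the labels) from fetal liver of that age, and WT and ETV6-RUNX1 HSCs from bone marrow at 8 weeks. ETV6-RUNX1 is a fusion of a pair of blood transcription factor genes found in childhood B-cell leukemia. The cells of all 4 groups spent 3 days in a culture that expands HSCs, with 1 µg/mL doxycycline, the drug that switches on the inducible fusion, and WT cells received it too. The labels do not give the promoter or locus of the fusion construct, the sex of the animals, or how many animals went into a library. The p-values therefore measure the spread between these libraries, which may be technical in part.

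The integrated stress response starts when a kinase phosphorylates the translation factor eIF2, which lowers protein synthesis in general while the Atf4 mRNA is translated more. ATF4, often paired with a C/EBP protein, then switches on genes for amino acid synthesis and import and, under lasting stress, Ddit3, which encodes the factor CHOP. ATF4 is required for a normal fetal liver HSC pool. Because its control lies largely in translation, its mRNA level alone does not measure ATF4 protein. Doxycycline slows protein synthesis in mitochondria and is itself known to raise ATF4 targets in cultured cells. No culture without doxycycline was analysed here, so its part in the levels of any group cannot be told apart.

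The sequences that link these genes to ATF4 are short elements near their starts in which an ATF and a C/EBP protein bind side by side. RefSeq promoter windows (GRCm38.p6, 250 bases before to 50 after the start) were found for 10 of 10 genes and searched on both strands. The letters TGATGNAA were present in the windows of 3 genes, Asns, Trib3 and Chac1, and in 3.97% of all 32851 windows. By gene the share was 4.51% of 27025. The form TGNNGCAAT, which was chosen after the windows had been read, was present in Trib3, Chac1 and Psat1 and in 2.12% of all windows. By gene that share was 2.46%. The 5 stretches below, written in the direction of the gene, show these matches in capitals.
Asns, chr6:7693215-7693242, minus strand, 23 to 16 bases before the start: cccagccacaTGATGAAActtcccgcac
Chac1, chr2:119351039-119351066, plus strand, 193 to 186 bases before the start, match on the opposite strand: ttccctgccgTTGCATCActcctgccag
Chac1, chr2:119350992-119351010, plus strand, 250 to 242 bases before the start: TGACGCAATctgactcgcc
Trib3, chr2:152344075-152344103, minus strand, 33 to 25 bases before the start: gggtcacagaTGGTGCAATcccgggccgc
Psat1, chr19:15925177-15925205, minus strand, 136 to 128 bases before the start: cgcgggtggcTGGTGCAATcccctgctct
Psat1 and Trib3 carried the same 9 letters. The first form in Trib3 lay after the RefSeq start, at chromosome 2, 152344039 to 152344046. The RefSeq start used for Psat1 lies inside the longer GENCODE gene. The full cyclic AMP element TGACGTCA was in none of the 10 genes and in 1.79% of all windows (2.03% of all genes). The E-box CACGTG was in none and in 7.15% of windows (8.09% of genes). CCAAT, the NF-Y box, was in 7 of the 10 and in 37.4% of all windows (41.1% of genes). A match describes letters and does not show a bound site.

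On GRCm38 with GENCODE M21 the genes are protein coding and lie as follows. Atf4 (ENSMUSG00000042406) is at chromosome 15, 80255184 to 80257541. On chromosome 10 are Ddit3 (ENSMUSG00000025408, 127290774 to 127296288), Shmt2 (ENSMUSG00000025403, 127517123 to 127522444) and Ddit4 (ENSMUSG00000020108, 59949669 to 59951834). On chromosome 2 are Trib3 (ENSMUSG00000032715, 152337422 to 152344032) and Chac1 (ENSMUSG00000027313, 119351229 to 119354381). On chromosome 6 are Asns (ENSMUSG00000029752, 7675169 to 7693254) and Mthfd2 (ENSMUSG00000005667, 83305691 to 83325908). Phgdh (ENSMUSG00000053398) is at chromosome 3, 98313170 to 98339990, and Psat1 (ENSMUSG00000024640) at chromosome 19, 15904678 to 15947337. A second GENCODE gene named Ddit3 (ENSMUSG00000116429, not analysed here) lies on the same strand with overlapping exons, so that reads of the pair could be split or left uncounted whatever the use of strand. Ddit3 also shares exon sequence on the opposite strand with Gm4189, at 1.19 CPM or less, and with Mars, and whether counting used strand is not given in the sources used here. Mars lay between 64.2 and 102 CPM in the 12 libraries, and its log2 fold changes with ETV6-RUNX1 of -0.34 in fetal liver and -0.14 in bone marrow were not called (limma adjusted p 0.0803 and 0.548). Phgdh has 10 copies elsewhere in the genome in the table that match it at 90.4% or more, of which none exceeded 2.84 CPM. The closest of them, Gm7901 at 98.7%, was at 0 CPM in every library, and further copies, such as Gm9347 at 97.4%, are not in the table. How many reads of Phgdh were lost to its copies therefore cannot be told from these levels.

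Library totals ran from 32316730 to 64483920 reads. A floor of 3 reads, taken as the limit of detection, came to 0.0465 to 0.0928 CPM, lower than every value of the 10 genes. WT bone marrow replicate 1 stood apart from its group: the chi-square per degree of freedom of its counts against replicates 2 and 3 was 171 and 179, while the other 10 replicate pairs gave 31.6 to 95.8. Of the neutrophil genes examined, Elane was at 17.3 CPM in replicate 1 and at 0.0390 and 0.224 CPM in replicates 2 and 3. S100a8 was at 49.4, 12.04 and 0.125 CPM in the 3 libraries, S100a9 at 23.2, 6.15 and 0 CPM, and Ngp at 36.9, 31.01 and 0 CPM, so replicate 2 carried part of this signal too. The list used for HSCs held 12 genes, Cd48 among them, which purified HSCs lack, and all 12 were at 1 CPM or more in every library. Their sum was 2066 to 2511 CPM in WT and 4413 to 4612 CPM in ETV6-RUNX1 fetal liver, and 2327 to 3306 against 3291 to 3714 CPM in bone marrow. Ly6a, which encodes Sca-1, made up much of the fetal difference, at 21.4 CPM or less in WT and 629 to 1107 CPM in ETV6-RUNX1 libraries. Cd48 itself was at 103 to 215 CPM in the WT and 18.7 to 44.5 CPM in the ETV6-RUNX1 libraries of both sources. Megakaryocyte markers (10 of 10 present at 1 CPM or more in fetal liver) summed to 3214 to 4800 CPM in WT and 7684 to 8542 CPM in ETV6-RUNX1 fetal liver, and to 1408 to 1872 against 482 to 2163 CPM in bone marrow. Pf4 was the largest part of these sums, and in ETV6-RUNX1 bone marrow it was at 224, 1217 and 149 CPM, so that replicate 2 set the upper end there. Gp9, of the same list, had lower means with ETV6-RUNX1, at 213 CPM where WT fetal liver had 387 CPM, and at 20.5 CPM where WT bone marrow had 118 CPM. Erythroid markers summed to 784 to 1060 against 1511 to 2243 CPM in fetal liver and to 273 to 548 against 446 to 646 CPM in bone marrow, with Klf1 at 1.46 CPM or less throughout. Hbb-bt was the largest part of these sums, its mean going from 815 to 1611 CPM in fetal liver and from 297 to 488 CPM in bone marrow. The mean of Tfrc went the other way, from 55.8 to 33.1 CPM and from 44.5 to 19.7 CPM. Lower means were also seen for Klf1 in fetal liver and for Epor and Rhag in bone marrow. Granulocyte and monocyte markers summed to 427 to 543 against 682 to 877 CPM in fetal liver and 382 to 662 against 362 to 548 CPM in bone marrow. The members did not move together in fetal liver: the mean of Lyz2 was 233 CPM in WT and 686 CPM in ETV6-RUNX1, while Mpo went from 67.4 to 10.1 CPM and Prtn3 from 188 to 30.4 CPM. The female-specific RNA Xist was at 51.7 to 89.3 CPM in fetal liver and 0.175 to 1.27 CPM in bone marrow. The sum of 4 Y-linked genes was 64.6 to 119 CPM in WT and 198 to 220 CPM in ETV6-RUNX1 fetal liver, and 229 to 288 against 268 to 389 CPM in bone marrow, while fetal Xist overlapped between the genotypes. The part of these differences in markers and sex-linked genes in the results below was not tested, and in bulk RNA fewer cells of a type and less RNA per cell cannot be told apart.

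In fetal liver Ddit3 alone of the 10 genes was called higher with ETV6-RUNX1, and 6 were called lower. Ddit3 was 3.51 times its WT mean, while Asns, Psat1, Phgdh, Shmt2 and Mthfd2 fell to between 0.369 and 0.519 of theirs and Atf4 itself fell to 0.663. Trib3, Chac1 and Ddit4 did not pass the test. Thus 7 of the 10 genes were called at a Benjamini-Hochberg adjusted p under 0.05 by limma, against a background of 43.1% of all genes. Of the 7, 1 was higher (background 24.8%) and 6 were lower (background 18.3%). The median log2 fold change of the 10 was -0.76, against 0.08 over all genes tested. All fold changes on the log2 scale are of log2(CPM + 1), which understates changes of low genes.

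In bone marrow genes were again called in both directions. Ddit3 was 2.56, Trib3 2.49 and Ddit4 2.47 times the WT mean, whereas Psat1 fell to 0.516 and Asns, Phgdh and Shmt2 to between 0.685 and 0.738. Atf4, Chac1 and Mthfd2 did not pass. The count was again 7 of 10 (3 higher and 4 lower), against a background of 19.4% (14.4% higher and 4.93% lower). The median was -0.22 against 0.13 over all genes. Leaving out replicate 2 of the ETV6-RUNX1 bone marrow group cut the count to 3, with the calls of Asns, Phgdh, Shmt2 and Ddit4 lost. Without WT bone marrow replicate 1, the library that stood apart, the count was 5, with Phgdh and Ddit4 lost. Calls over all 14271 genes tested fell too, from 2763 to 1520 in the former fit and to 2047 in the latter.

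**Figure D1:**
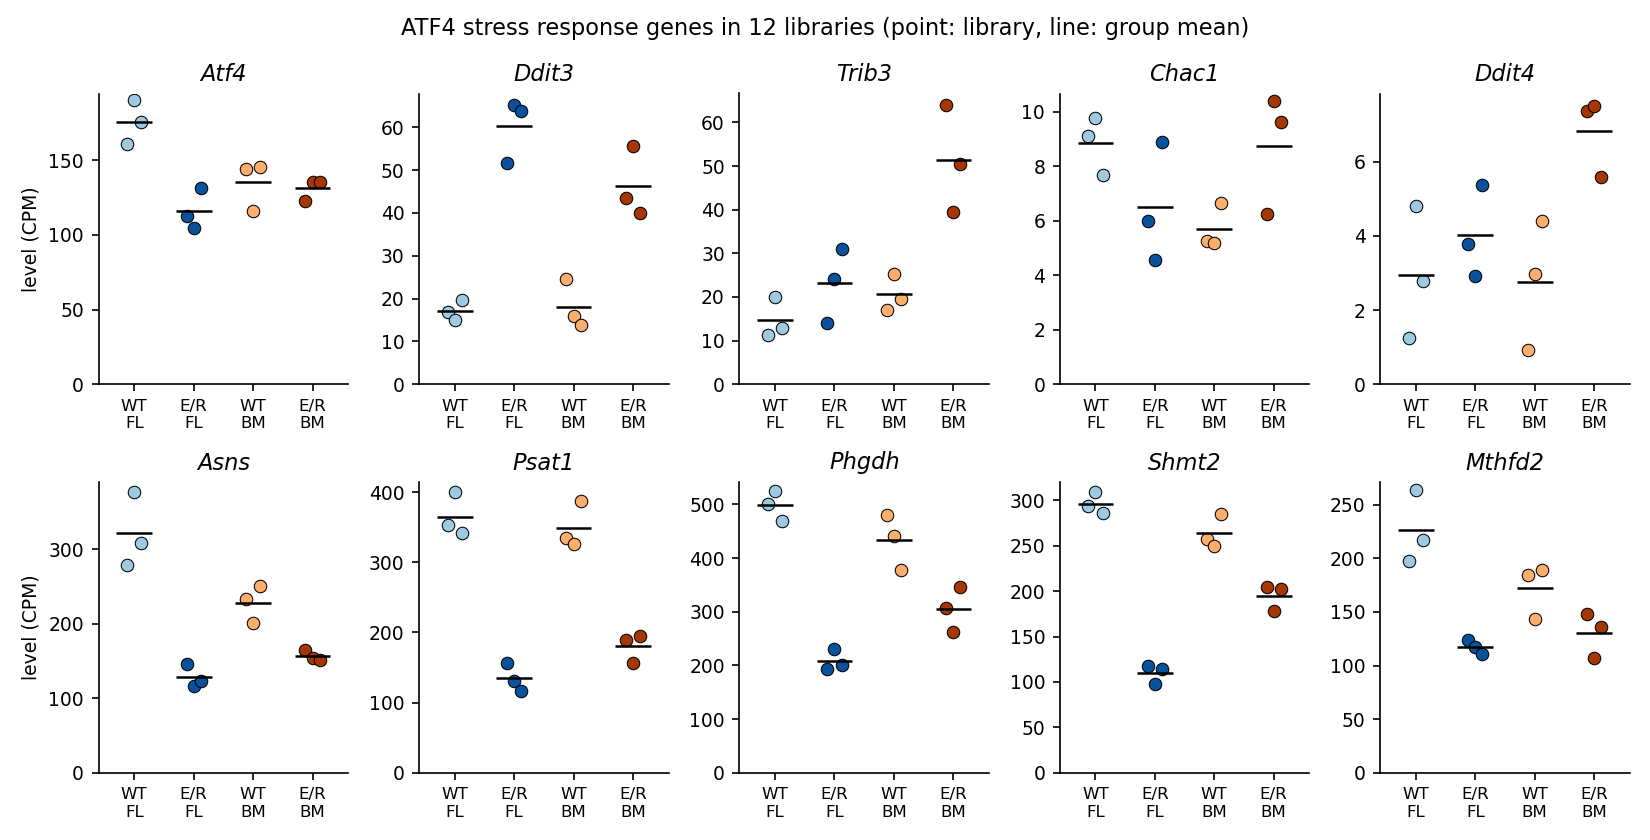
Level in CPM (vertical axes, each from 0) of the 10 genes in the 4 groups: WT and ETV6-RUNX1 (E/R) HSCs from fetal liver (FL) and bone marrow (BM). Each point is 1 library and each line a group mean. The upper row holds Atf4 and the stress effectors, with Ddit3 higher in ETV6-RUNX1 in both sources; the lower row holds the 5 enzymes, which were highest in WT fetal liver by mean and lowest in ETV6-RUNX1 fetal liver.

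Atf4 encodes the transcription factor at the centre of the programme. Its level was 161, 190.5 and 176 CPM in the 3 WT fetal liver libraries and 113, 105 and 132 CPM with ETV6-RUNX1. Every ETV6-RUNX1 library lay below every WT library, and the effect on the log2 scale was -0.59 ± 0.13 SE, with a limma adjusted p of 0.00267. In bone marrow it stood at 144, 116 and 146 CPM in WT and 123, 135 and 135 CPM in ETV6-RUNX1 libraries. These ranges overlapped, and the log2 fold change of -0.04 had a 95% interval of -0.33 to 0.25 (limma adjusted p 0.86). By these ranges WT fetal liver lay apart from the other 3 groups, its lowest library exceeding the highest of any other group. However, the WT difference between the sources, 0.38 on the log2 scale, did not pass (limma adjusted p 0.0894). Nor did the difference in the effect of ETV6-RUNX1 between the sources, at -0.55 (limma adjusted p 0.0795).

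Ddit3 encodes CHOP, a bZIP factor that ATF4 induces and that promotes cell death under lasting stress. In fetal liver it was at 16.8, 15.1 and 19.6 CPM in WT and at 51.6, 65.3 and 63.8 CPM in ETV6-RUNX1 libraries. In bone marrow the values were 24.6, 16.03 and 13.8 CPM in WT and 43.5, 55.5 and 40.1 CPM with the fusion. The 6 ETV6-RUNX1 libraries all lay above the 6 WT libraries, whatever the source. The log2 fold change in fetal liver was 1.75 ± 0.21 SE, with a limma adjusted p of 1.45e-05. In bone marrow it was 1.33 ± 0.21 SE, with a limma adjusted p of 0.000925. Both calls held in all 23 alternatives of processing. Their difference of 0.42 between the sources did not pass (limma adjusted p 0.38).

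Because Atf4 and Ddit3 come from 1 library each time, their ratio within a library does not depend on how libraries are scaled. Reads of Ddit3 per read of Atf4 were 0.0791 to 0.112 in WT and 0.458 to 0.624 in ETV6-RUNX1 fetal liver. In bone marrow they were 0.0949 to 0.17 in WT and 0.296 to 0.41 in ETV6-RUNX1. The ratio of Asns to Atf4 moved the other way, from 1.73 to 1.98 in WT down to 0.932 to 1.29 in ETV6-RUNX1 fetal liver, and from 1.61 to 1.73 down to 1.12 to 1.34 in bone marrow. No group of one genotype overlapped a group of the other in either ratio.

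Trib3 encodes a pseudokinase that ATF4 and CHOP induce and that restrains AKT and ATF4 itself. In fetal liver its values were 11.4, 19.9 and 12.8 CPM in WT and 14.1, 24.1 and 31.04 CPM in ETV6-RUNX1 libraries, which overlapped. The log2 fold change of 0.59 ± 0.28 SE did not pass (limma adjusted p 0.104), with a 95% interval of -0.01 to 1.19. It passed when WT replicate 2 or ETV6-RUNX1 replicate 1 of fetal liver was left out. In bone marrow it was at 16.97, 25.4 and 19.5 CPM in WT and at 63.98, 39.5 and 50.5 CPM in ETV6-RUNX1 libraries, with no overlap. That rise was 1.27 ± 0.28 SE on the log2 scale (limma adjusted p 0.00735) and was called in all 23 alternatives.

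Chac1 encodes an enzyme that degrades glutathione and is a target of ATF4 and CHOP. It was low, at 9.12, 9.79 and 7.69 CPM in WT and 6.01, 4.56 and 8.91 CPM in ETV6-RUNX1 fetal liver. The bone marrow values were 5.26, 5.2 and 6.65 CPM in WT and 6.27, 10.4 and 9.62 CPM with the fusion. The groups overlapped in both sources, and neither effect passed. It was -0.43 ± 0.24 SE for the fetal cells (limma adjusted p 0.157) and 0.52 ± 0.24 SE for the adult cells (limma adjusted p 0.136). These opposite signs gave a difference between sources of -0.95, which did not pass either (limma adjusted p 0.0886, 95% interval -1.67 to -0.23).

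Ddit4 encodes REDD1, an inhibitor of mTORC1 that ATF4, hypoxia and glucocorticoids induce. It was the lowest of the 10 genes, at 1.25, 4.82 and 2.78 CPM in WT and 3.78, 2.91 and 5.37 CPM in ETV6-RUNX1 fetal liver, with no call (log2 fold change 0.42, limma adjusted p 0.386). In bone marrow the values were 0.914, 2.96 and 4.41 CPM in WT and 7.38, 7.51 and 5.6 CPM in ETV6-RUNX1 libraries. These did not overlap, although the WT values ranged over more than their own median. The log2 fold change was 1.17 ± 0.37 SE (limma adjusted p 0.0411), and 7 of 22 alternatives called it, with adjusted p from 0.0236 to 0.153. The lowest value, in WT bone marrow replicate 1, rested on 48 reads.

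Asns encodes asparagine synthetase and is among the best known ATF4 targets. It was at 279, 377 and 309 CPM in WT and 146, 117 and 123 CPM in ETV6-RUNX1 fetal liver, an effect on the log2 scale of -1.31 ± 0.14 SE, with a limma adjusted p of 6.41e-06. In bone marrow it was at 233, 201 and 251 CPM in WT and 164, 154 and 151 CPM in ETV6-RUNX1 libraries. The groups did not overlap there either, and the log2 fold change was -0.54 ± 0.14 SE (limma adjusted p 0.017). The bone marrow call was lost without ETV6-RUNX1 replicate 2 or WT replicate 3 and held in the other 21 alternatives.

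Phgdh and Psat1 encode the enzymes of the opening steps of serine synthesis from glycolysis. Phgdh, the entry enzyme, was at 501, 525 and 468 CPM in WT and 193, 231 and 201 CPM in ETV6-RUNX1 fetal liver. Bone marrow libraries held Phgdh at 479.7, 441 and 378 CPM in WT and 307, 262 and 346 CPM with the fusion. Neither pair of groups overlapped. The effect in fetal liver was -1.25 ± 0.14 SE on the log2 scale, with a limma adjusted p of 7.1e-06, and that in bone marrow was -0.50 ± 0.14 SE, with a limma adjusted p of 0.0194. Over the alternatives the bone marrow adjusted p of Phgdh ran from 0.00141 to 0.09, and 19 of 23 called it.

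Psat1, the aminotransferase that follows Phgdh, was at 353, 400.4 and 342 CPM in WT and 156, 131 and 117 CPM in ETV6-RUNX1 fetal liver. In bone marrow the values were 334, 326 and 388 CPM in WT and 189, 156 and 195 CPM with the fusion. All 6 ETV6-RUNX1 libraries lay below all 6 WT libraries. The effect on Psat1 in fetal liver was -1.44 ± 0.14 SE on the log2 scale, with a limma adjusted p of 2.37e-06, and that in bone marrow was -0.95 ± 0.14 SE, with a limma adjusted p of 0.000643. By estimate these were the largest falls of the 10 genes, although the fetal one was within the error of that of Shmt2. Both calls held in all 23 alternatives. Reads of Ddit3 per read of Psat1 were 0.0357 to 0.0735 in the 6 WT libraries and 0.205 to 0.544 in the 6 ETV6-RUNX1 libraries.

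Shmt2 and Mthfd2 encode the mitochondrial enzymes that turn serine into one-carbon units for nucleotide synthesis. Shmt2 was at 294, 309.6 and 286 CPM in WT and 118, 98.1 and 114 CPM in ETV6-RUNX1 fetal liver, with a log2 fold change of -1.42 ± 0.12 SE (limma adjusted p 4.59e-07). Its bone marrow values were 258, 249 and 285 CPM in WT and 205, 178 and 202 CPM with the fusion, a log2 fold change of -0.44 ± 0.12 SE (limma adjusted p 0.02). There was no overlap in either source, and 20 of 23 alternatives called the bone marrow fall (adjusted p 0.000328 to 0.0843).

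Mthfd2 was at 198, 263 and 217 CPM in WT and 124, 117 and 111 CPM in ETV6-RUNX1 fetal liver, which did not overlap (log2 fold change -0.93 ± 0.16 SE, limma adjusted p 0.000311). The bone marrow values of Mthfd2 were 185, 144 and 189 CPM in WT and 148, 107 and 136 CPM with the fusion. ETV6-RUNX1 replicate 1 lay above WT replicate 2 there, and the log2 fold change of -0.40 ± 0.16 SE did not pass (limma adjusted p 0.0854). It passed with median-of-ratios scaling, edgeR and DESeq2, and without WT bone marrow replicate 2.

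**Figure D2:**
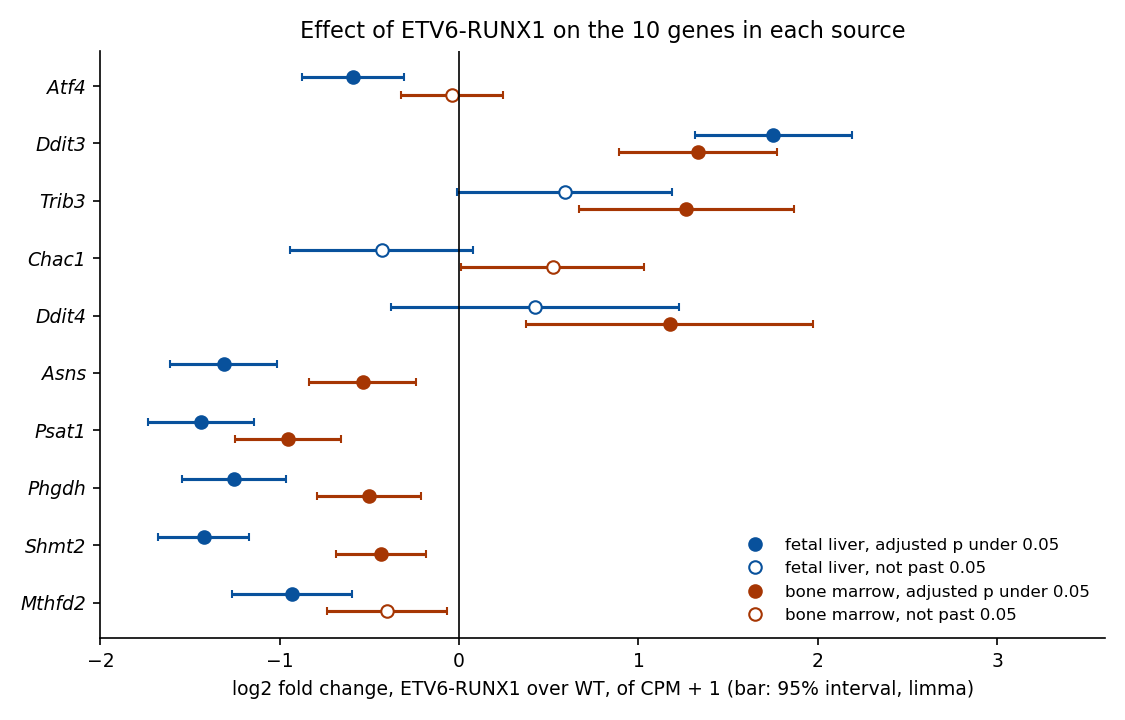
Log2 fold change of ETV6-RUNX1 over WT, of CPM + 1 (horizontal axis), for each of the 10 genes in fetal liver (blue) and bone marrow (brown), with 95% intervals from limma; filled points passed an adjusted p of 0.05. The fetal liver values of the 5 enzymes lie between -1.44 and -0.93, each to the left of its bone marrow value, while Ddit3 lies to the right of 0 in both.

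The difference between the sources in the effect of ETV6-RUNX1 was tested as an interaction, fetal liver minus bone marrow. It passed for 3 of the 10 genes against a background of 9.19%, and all 3 were enzymes that fell further in fetal liver (background of negative differences 3.62%). Shmt2 had a difference of -0.99 ± 0.17 SE (limma adjusted p 0.00232), Asns -0.77 ± 0.20 SE (limma adjusted p 0.0261) and Phgdh -0.75 ± 0.19 SE (limma adjusted p 0.0258). For Psat1, Mthfd2 and Atf4 the differences of -0.48, -0.53 and -0.55 did not pass (limma adjusted p 0.135, 0.144 and 0.0795). The call of Shmt2 held in all 22 alternatives that gave a value. That of Asns held in 13 (adjusted p 0.0078 to 0.181) and that of Phgdh in 11 (adjusted p 0.00233 to 0.147), and both were lost without WT fetal liver replicate 2, WT bone marrow replicate 2 or ETV6-RUNX1 bone marrow replicate 1, each of which left a count of 1.

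Fetal liver and bone marrow were then compared within each genotype, using libraries that also entered the comparisons above. In WT, 1 of the 10 genes passed against a background of 11.1% (3.38% higher and 7.77% lower in fetal liver). Asns was higher in fetal liver by 0.49 ± 0.14 SE on the log2 scale (limma adjusted p 0.0374), a call lost without WT fetal liver replicate 2 or 3 or WT bone marrow replicate 2, each leaving a count of 0. Atf4, at 0.38, and Mthfd2, at 0.39, did not pass (limma adjusted p 0.0894 and 0.133), although neither overlapped between the sources. Psat1 had a WT difference of 0.06 with a 95% interval of -0.23 to 0.36.

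With ETV6-RUNX1, 4 of the 10 genes were lower in fetal liver than in bone marrow, against a background of 28.6% called in either direction, 18.2% lower. Trib3 differed by -1.16 ± 0.28 SE (limma adjusted p 0.00706), Shmt2 by -0.82 ± 0.12 SE (limma adjusted p 0.000146), Phgdh by -0.54 ± 0.14 SE (limma adjusted p 0.00868) and Psat1 by -0.42 ± 0.14 SE (limma adjusted p 0.0357). The median of all genes in this comparison was -0.16 in CPM as deposited and near 0 after median-of-ratios scaling. The call of Psat1 held in 11 of 23 alternatives and that of Phgdh in 19, and both were lost under that scaling, edgeR and DESeq2, while Shmt2 was called in all 23 alternatives and Trib3 in 22.

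**Figure D3:**
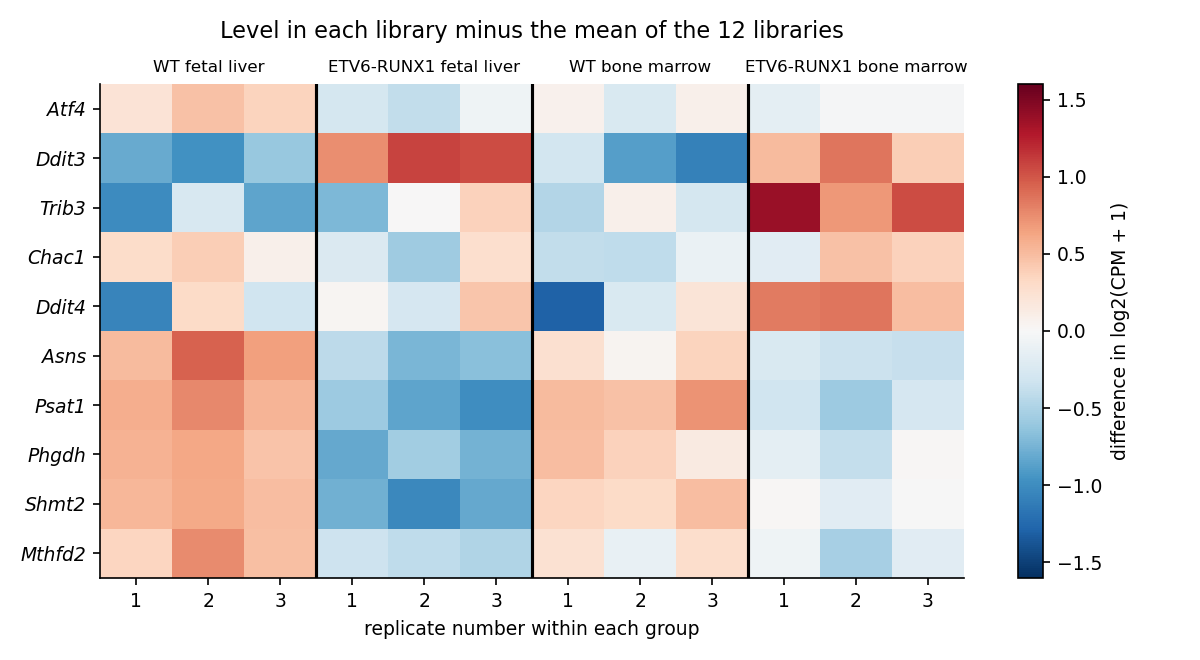
Level of each gene in each library as log2(CPM + 1) minus its mean over the 12 libraries (colour: red above, blue below the mean), with replicate numbers on the horizontal axis and black lines between groups. The 5 enzymes in the lower rows are above their means in all 3 WT fetal liver libraries and below them in all 3 ETV6-RUNX1 fetal liver libraries, and Ddit3 shows the reverse.

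Levels between genes were compared per kilobase of exon (RPKM, from CPM and the summed exon length in GENCODE M21). Phgdh was highest in every group by mean, at 200.4 ± 11.5 RPKM (SD, n = 3) in WT fetal liver and 83.9 ± 8.04 RPKM in ETV6-RUNX1 fetal liver, and at 174 ± 20.7 and 123 ± 16.9 RPKM in the bone marrow groups. Ddit4 was lowest in every group, at 1.57 to 3.89 RPKM, with Chac1 next at 3.48 to 5.42 RPKM. In WT fetal liver the order after Phgdh was Asns (118 ± 18.5 RPKM), Shmt2 (95.4 ± 3.88), Psat1 (85.9 ± 7.27), Atf4 (74.5 ± 6.31) and Mthfd2 (64.8 ± 9.69), and neighbours in this order differed by less than their SDs added together. In ETV6-RUNX1 fetal liver Ddit3 reached 35.2 ± 4.37 RPKM, within the spread of Shmt2 (35.4 ± 3.39), Mthfd2 (33.6 ± 1.83) and Psat1 (31.7 ± 4.64). In WT fetal liver, by contrast, it stood at 10.03 ± 1.35 RPKM, below each of those enzymes. Atf4 stood at the fifth place of the 10 in WT fetal liver and at the second, at 49.3 ± 5.87 RPKM, in ETV6-RUNX1 fetal liver, where Asns at 46.9 ± 5.58 RPKM was within its spread.

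The genes upstream of Atf4 were examined through 18 genes for the eIF2 kinases, eIF2 phosphatases, eIF2 and its exchange factor eIF2B. In fetal liver 3 were called higher and 7 lower, where 24.8% and 18.3% of all genes were, and in bone marrow 2 and 4, where 14.4% and 4.93% of all genes were. Without ETV6-RUNX1 bone marrow replicate 2 none of the bone marrow calls was left, and with the 6 bone marrow libraries alone 2 higher and no lower ones were. Leaving out WT bone marrow replicate 1 or ETV6-RUNX1 bone marrow replicate 1 left 1 lower call each, and there were 2 without WT fetal liver replicate 2 or 3 or WT bone marrow replicate 3. Eif2ak2, the double-stranded RNA kinase PKR, was the kinase called: its mean rose from 60.7 to 215 CPM in fetal liver (log2 fold change 1.80 ± 0.20 SE, limma adjusted p 7.78e-06) and from 87.6 to 153 CPM in bone marrow (0.79 ± 0.20 SE, adjusted p 0.0136). Its difference between the sources was 1.01 (limma adjusted p 0.0365), which 12 of 22 alternatives called. Eif2ak1, Eif2ak3 and Eif2ak4, the kinases of heme or mitochondrial stress, endoplasmic reticulum stress and amino acid shortage, had log2 fold changes of 0.42, 0.05 and 0.13 in fetal liver and 0.37, 0.11 and 0.14 in bone marrow, with no call. The fetal log2 fold changes had limma adjusted p of 0.165, 0.871 and 0.611. Eif2ak1, at a mean of 46.4 CPM over the 12 libraries, shares exon sequence on the opposite strand with Aimp2, at 58.1 CPM.

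Ppp1r15a encodes GADD34, the phosphatase subunit that reverses eIF2 phosphorylation and is a target of ATF4 and CHOP. It was at 64.1, 44.2 and 57.5 CPM in WT and 112, 174 and 146 CPM in ETV6-RUNX1 fetal liver. It rose by 1.36 ± 0.21 SE there (limma adjusted p 0.000161). The rise in bone marrow was 0.82 ± 0.21 SE (limma adjusted p 0.0163), where the call was lost without ETV6-RUNX1 replicate 1 or 2. Of the eIF2B subunits, Eif2b3 and Eif2b1 fell in fetal liver, with log2 fold changes of -1.15 and -0.95 (limma adjusted p 2.08e-05 and 8.32e-05).

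ATF4 acts with partner bZIP factors and is restrained by TRIB proteins. Of 9 such genes tested, 4 were called higher in fetal liver (24.8% of all genes) and 3 in bone marrow (14.4% of all genes), and the rest were not called. Atf5, a bZIP factor translated under the same stress, was at 1.87 CPM in WT and 5.66 CPM in ETV6-RUNX1 fetal liver by mean, and at 1.67 and 8.69 CPM in bone marrow (log2 fold changes 1.17 and 1.83, limma adjusted p 0.0016 and 0.000361). Atf5 shares exon sequence with genes on the opposite strand. Cebpb, a C/EBP partner, rose in bone marrow (4.43 to 13.9 CPM, log2 fold change 1.48, limma adjusted p 0.0062) and did not pass in fetal liver (0.76, adjusted p 0.0645). Nupr1, a stress-induced chromatin protein, rose from 97.8 to 297 CPM in bone marrow (1.63, limma adjusted p 0.000972).

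Atf3, a repressor in the same pathway, was at 0.173, 0.0837 and 0.062 CPM in WT and at 19.5, 43.5 and 23.5 CPM in ETV6-RUNX1 fetal liver (log2 fold change 4.67 ± 0.91 SE, limma adjusted p 0.000946). The 3 WT values lie close to the floor of 3 reads. In ETV6-RUNX1 bone marrow it was at 0.892, 48.99 and 0.433 CPM, so that replicate 2 alone held a level like that of fetal liver, and the effect did not pass (limma adjusted p 0.1). Trib2 rose from 0.147 to 4.09 CPM by mean in fetal liver (log2 fold change 2.14, limma adjusted p 1.35e-06).

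Outside the enzymes, 13 further targets of ATF4 in stress and signalling were tested, of which 3 were called higher and 4 lower in fetal liver (24.8% and 18.3% of all genes), and 3 higher in bone marrow (14.4%). The 4 lower calls were 2 without WT replicate 2 or ETV6-RUNX1 replicate 1 of fetal liver. The 3 higher calls in fetal liver were 5 without ETV6-RUNX1 fetal liver replicate 1 or bone marrow replicate 2, and those in bone marrow were 5 without ETV6-RUNX1 replicate 3. Sqstm1, the autophagy receptor p62, rose by 1.01 in fetal liver and 1.10 in bone marrow on the log2 scale (limma adjusted p 0.000331 and 0.000972). Bbc3, which encodes the cell death protein PUMA, rose by 1.31 and 1.24 (limma adjusted p 0.000546 and 0.0033). Sesn2, a leucine sensor that inhibits mTORC1, rose by 1.13 in bone marrow (limma adjusted p 0.00232). Stc2, a secreted glycoprotein, fell in fetal liver from 2.59 to 0.69 CPM (log2 fold change -1.09, limma adjusted p 0.00223).

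Genes of amino acid import and of tRNA charging, many of them ATF4 targets, were examined next. Of 10 transporters, 1 was called higher and 5 lower in fetal liver (24.8% and 18.3% of all genes), and 3 higher in bone marrow (14.4%), where 1 to 2 were called higher under median-of-ratios, quantile, edgeR and DESeq2 scaling. The 5 lower calls were 2 without WT replicate 2 or ETV6-RUNX1 replicate 1 of fetal liver, and 3 without ETV6-RUNX1 fetal liver replicate 2 or 3 or bone marrow replicate 1. The 3 higher calls in bone marrow were 1 without any of WT fetal liver replicates 2 and 3, ETV6-RUNX1 fetal liver replicate 1, WT bone marrow replicates 1 and 2 and ETV6-RUNX1 bone marrow replicates 1 and 2. Slc7a5, the leucine importer, was at 36.2, 30.2 and 27.4 CPM in WT and 12.3, 10.95 and 14.8 CPM in ETV6-RUNX1 fetal liver (log2 fold change -1.24 ± 0.21 SE, limma adjusted p 0.000321), and its bone marrow means were 22.9 and 22.4 CPM. The difference between these effects was -1.21 (limma adjusted p 0.0211), and it did not pass without ETV6-RUNX1 fetal liver replicate 2, without WT bone marrow replicate 2 or with the pseudogene share as a covariate. Slc7a11, the cystine importer, was the 1 that rose in fetal liver, by 1.14 on the log2 scale (limma adjusted p 0.00263), and it rose by 1.26 in bone marrow (limma adjusted p 0.00464). Of 13 genes of tRNA charging and export, 6 were called lower in fetal liver (18.3% of all genes) and 1, Nars, lower in bone marrow (4.93%), and the rest were not called. The bone marrow call of Nars held in 9 of 23 alternatives. The fetal log2 fold changes of Nars, Yars and Sars were -0.69, -0.61 and -0.54 (limma adjusted p 0.000723, 0.00129 and 0.00221). With the 4 scalings just named, 7 to 8 of the 13 were called lower in fetal liver and 2 to 7 in bone marrow. More of all genes were called lower under these scalings too. In bone marrow 2572 to 3297 genes were called, 48.5% to 52.0% of them higher, against 2763 and 74.5% in the main fit. In fetal liver 6178 to 6540 were called, 42.0% to 53.0% of them higher, against 6151 and 57.6%.

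Serine, proline and one-carbon metabolism was represented by 15 further enzymes and carriers, of which 9 were called lower and 2 higher in fetal liver (18.3% and 24.8% of all genes), and 5 lower and 1 higher in bone marrow (4.93% and 14.4%). The 5 lower calls in bone marrow were 1 without ETV6-RUNX1 replicate 2 or with the 6 bone marrow libraries alone, and 2 without WT replicate 3. They were 6 to 8 under the 4 scalings, where more of all genes were called lower too, as given above. The 1 higher call there was lost without WT replicate 1 or 3 or ETV6-RUNX1 replicate 1 or 2. It was also lost with no filter, array weights, the 6 bone marrow libraries alone, median-of-ratios scaling, quantile normalization and edgeR. Psph, which completes serine synthesis after Phgdh and Psat1, fell from 112 to 53.5 CPM in fetal liver (log2 fold change -1.04 ± 0.16 SE, limma adjusted p 0.000145), and its bone marrow value of -0.39 did not pass (adjusted p 0.101). Psph shares exon sequence on the opposite strand with Cct6a, a gene of higher level. Sfxn1, which carries serine into mitochondria, fell in both sources, with log2 fold changes of -1.34 and -0.42 for fetal liver and bone marrow (limma adjusted p 9.81e-07 and 0.0244). So did Gcsh, of the glycine cleavage system, at -1.49 and -0.63 (limma adjusted p 6.54e-06 and 0.0151). The median log2 fold change of these 15 was -0.71 in fetal liver and -0.39 in bone marrow.

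**Figure D4:**
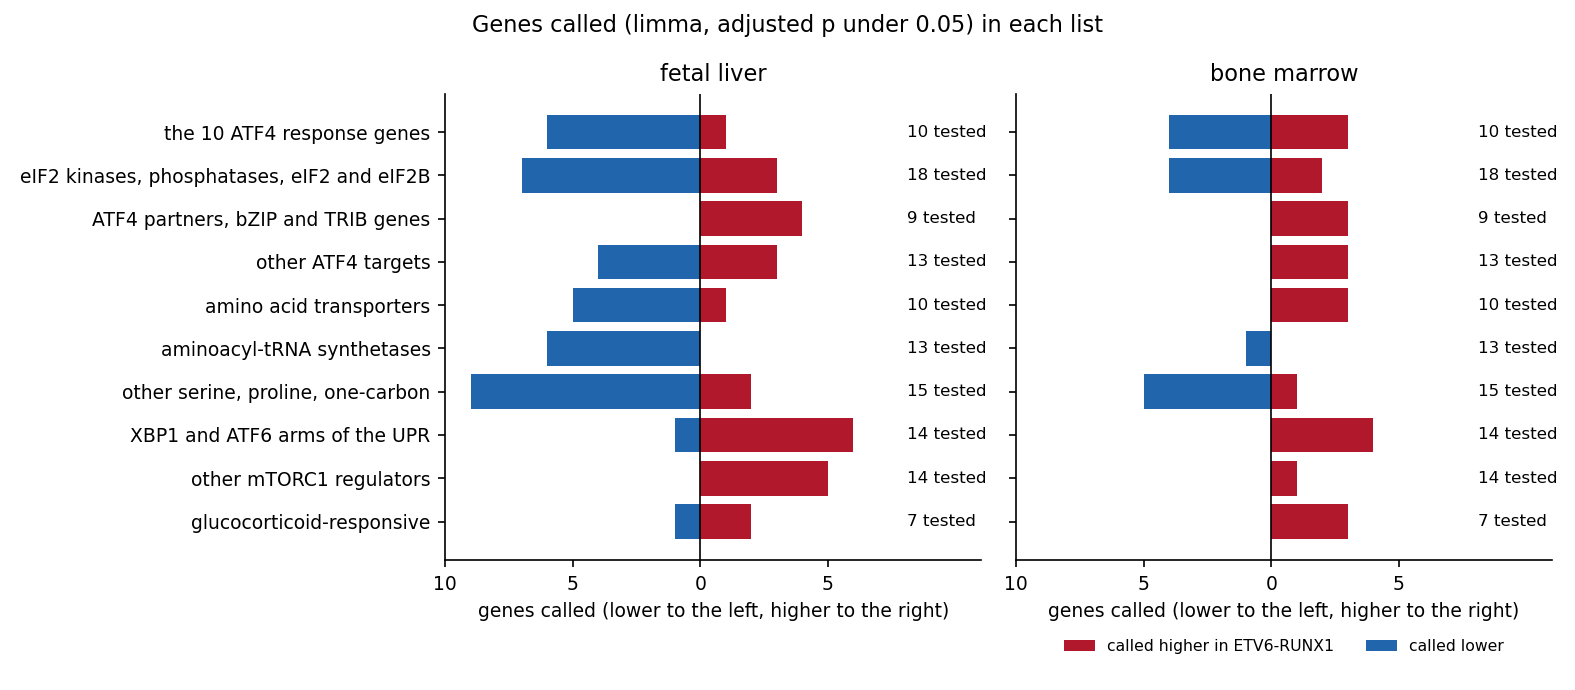
Number of genes called lower (blue, to the left) and higher (red, to the right) with ETV6-RUNX1 in the 10 genes and in 9 lists around them, with the number tested at the right of each row; limma, adjusted p under 0.05. In fetal liver 9 of 15 further serine, proline and one-carbon genes were lower, and 6 of 14 genes of the XBP1 and ATF6 arms were higher.

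The unfolded protein response has further arms, run by XBP1 and ATF6, that meet the ATF4 arm at Ddit3. Of 14 genes of these arms, 6 were called higher and 1 lower in fetal liver (24.8% and 18.3% of all genes), and 4 higher in bone marrow (14.4%). The 1 lower call was lost without WT replicate 1 or 2 or any 1 of the ETV6-RUNX1 replicates of fetal liver. Ern1, the sensor IRE1, rose by 1.15 and 1.29 on the log2 scale in the fetal liver and bone marrow comparisons (limma adjusted p 0.000128 and 0.00037), and Dnajb9, a chaperone under XBP1, by 1.24 and 1.02 (limma adjusted p 3.25e-05 and 0.000951). Xbp1 rose from 59.9 to 153 CPM in fetal liver (log2 fold change 1.31, limma adjusted p 0.00152) and from 73.5 to 343 CPM in bone marrow (2.20, limma adjusted p 0.000246). Edem1, which sends misfolded proteins to degradation, rose from 33.4 to 109 CPM in the fetal cells (log2 fold change 1.68 ± 0.21 SE, limma adjusted p 3.18e-05), and its bone marrow means were 25.4 and 29.5 CPM. Hspa5, the chaperone BiP, is the classical target of these arms and was not called in either source (0.26 and -0.11, limma adjusted p 0.168 and 0.615); it was singled out after its values were seen.

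Ddit4 was set beside 14 other regulators of mTORC1 and 7 genes of the glucocorticoid response, the receptor included. Among the mTORC1 regulators 5 were called higher in fetal liver (24.8% of all genes) and 1 in bone marrow (14.4%). The fetal count was 3 to 5 under the other scalings, 2 with the pseudogene share as a covariate or without WT replicate 3 or ETV6-RUNX1 replicate 2 of fetal liver, and 3 without WT replicate 2 or ETV6-RUNX1 replicate 1. Nprl3 rose by 0.81 and Castor2 by 1.07 in fetal liver (limma adjusted p 0.000703 and 0.0028), and Akt1s1, which encodes the mTORC1 inhibitor PRAS40, rose from 4.24 to 20.3 CPM in bone marrow (log2 fold change 1.90, limma adjusted p 0.00297). Akt1s1 shares exon sequence on the opposite strand with Tbc1d17 and Dusp1 with Ergic1, each the more abundant of its pair, and Eif2ak2, Nprl3, Ppp1r15a, Sqstm1 and Yars likewise overlap exons of genes on the other strand. Of the glucocorticoid response genes, 2 were called higher and 1, Zbtb16, lower in fetal liver (24.8% and 18.3% of all genes), and 3 higher in bone marrow (14.4%). The call of Zbtb16 held in 12 of 22 alternatives. Dusp1 rose in both sources (0.88 and 1.15, limma adjusted p 0.00873 and 0.00524), and Nr3c1, the glucocorticoid receptor, by 1.18 and 0.54 (limma adjusted p 5.03e-05 and 0.0292), the bone marrow value losing its call under each of the 4 other scalings.

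**Figure D5:**
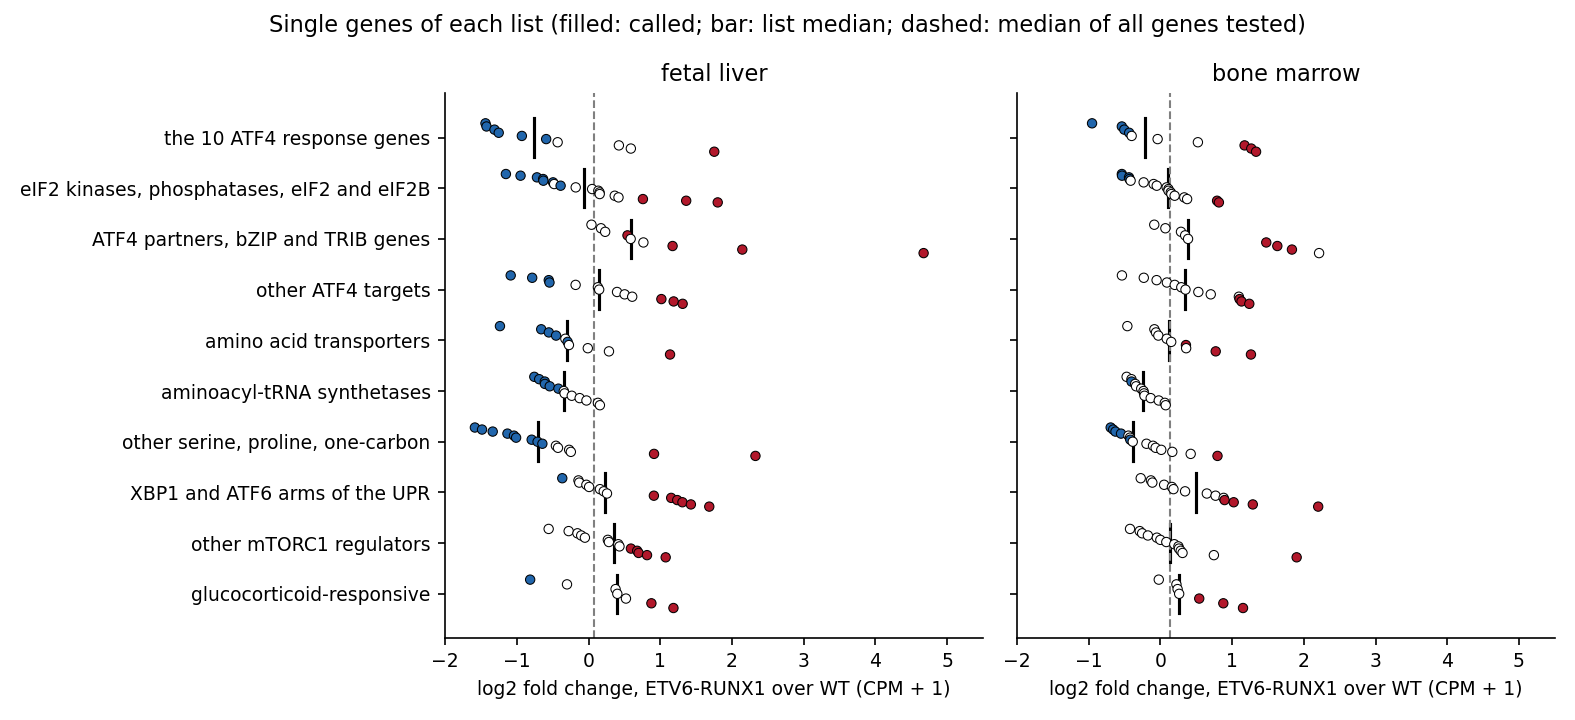
Log2 fold change of ETV6-RUNX1 over WT, of CPM + 1 (horizontal axis), of each gene of the same 10 lists in fetal liver and bone marrow. Filled points were called (red higher, blue lower), bars mark list medians and the dashed line the median of all genes tested, 0.08 in fetal liver and 0.13 in bone marrow; the medians of the 10 genes, -0.76 and -0.22, lie to its left.

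Finally, genes whose pattern was most like these genes were listed over the 12 libraries, as a description only, since the libraries fall into 4 groups and share those differences. Closest to the mean pattern of the 5 enzymes were Farsb, a tRNA synthetase subunit (Pearson r 0.99), Timm8a1, a mitochondrial import factor (0.989), and Srsf3, a splicing factor (0.989). Closest to Atf4 were Eif2s2, a subunit of eIF2 (0.956), Psmd6, a proteasome subunit (0.955), and Uchl3, a ubiquitin hydrolase (0.938). Closest to Ddit4 were Rxylt1 (0.948), Ythdf2 (0.947) and Smim10l1 (0.945). Among the 10 genes themselves, the 5 enzymes correlated with one another at r of 0.84 to 0.961, and Ddit3 with Psat1 at -0.98. Trib3 and Ddit4 had an r of 0.748, and Chac1 had 0.0294 with Psat1.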

How the data were processed

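RNA sequencing of 12 libraries of cultured mouse HSCs was analysed, in 4 groups of 3 taken from the sample titles. Per the labels' protocols, stranded total RNA libraries were prepared with a low-input kit and sequenced from both ends. The submitters' processing notes name bcl2fastq, STAR 2.5.1a, Subread, featureCounts 1.4.6-p5, Salmon 0.8.2, edgeR, limma and the build GRCm38; their roles, the annotation and the use of strand are not given in the sources used here. The authors deposited a table of CPM per gene. Its values were whole multiples of a step in each column, so that 100% could be turned back into whole reads (tolerance 0.01), and the step gave the library total. Of 40757 entries, 276 repeated a gene ID with the same values and were kept once.

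The main test was limma 3.58.1 in R 4.3.3 (lmFit, eBayes with a trend) on log2(CPM + 1) of the 14271 genes that reached 1 CPM in 3 or more libraries, as a two-sided test, with 1 coefficient per group, 8 residual degrees of freedom and Benjamini-Hochberg adjustment over all genes. It was tested on simulated data first. There were 5 comparisons. The alternatives were a pseudocount of 0.1, no filter, a mean of at least 5 CPM, quantile normalization, median-of-ratios scaling, array weights, a block for the replicate number, edgeR 4.0.16 (TMM) and DESeq2 1.42.0 run on recovered reads, a fit of the 6 compared libraries alone, each library left out in turn and, chosen after seeing the data, a covariate for the processed pseudogene share of each library. RPKM was CPM per kilobase of summed exon length in GENCODE M21, which held 99.4% of the gene IDs. Intervals and floors cover counting error or the spread between libraries only.

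From each list around the 10 genes, the counts of calls are given, and by name up to 3 called genes with the smallest p in each source, with Eif2ak1 to Eif2ak4, Ppp1r15a, Atf5, Cebpb and Psph always. For likeness, the 3 named genes with the highest r were taken. The 10 genes and the lists were chosen with earlier results of these data known.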

Additional observations from a re-analysis of the deposited data

Results flagged for a closer look

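The effect of ETV6-RUNX1 differed between fetal liver and bone marrow for 3 of the 10 genes by the interaction term of limma, each with a larger fall in fetal liver. Of all genes tested, 9.19% were called by this term, and 3.62% were called with a negative difference. The difference in log2 fold change was -0.99 for Shmt2 (limma adjusted p 0.00232), a call that held in all 22 alternatives that gave a value. It was -0.77 for Asns (limma adjusted p 0.0261) and -0.75 for Phgdh (limma adjusted p 0.0258). These calls were less stable and held in 13 and 11 of the 22 alternatives. Shmt2 encodes mitochondrial serine hydroxymethyltransferase, Asns asparagine synthetase and Phgdh the entry enzyme of serine synthesis. Megakaryocyte markers, Y-linked genes and Cd48 also differed between the genotypes, with the values given above, and their part in these differences was not tested.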

How the results depend on the processing

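In fetal liver the 7 calls (Atf4, Ddit3, Asns, Psat1, Phgdh, Shmt2 and Mthfd2) held in all 23 alternatives, and Chac1 or Trib3 was added in some, for a count of 7 to 8. In bone marrow the number of members called was 4 when the other 6 libraries were dropped and 3 to 7 with each library left out. It stayed at 7 with median-of-ratios scaling, edgeR and DESeq2, but with Ddit4 lost and Mthfd2 gained, so 2 were higher and 5 lower. Quantile normalization also lost Ddit4 and left 6. The interaction called 1 member with no filter, with the replicate block, with edgeR and with the pseudogene share as a covariate, 6 with array weights, and 1 to 4 with each library left out. Between the sources in WT the count was 0 with no filter, with the replicate block and with only the 6 libraries, 2 with median-of-ratios scaling and with DESeq2, 4 with array weights, and 0 to 1 with each library left out. With ETV6-RUNX1 it was 2 with median-of-ratios scaling, edgeR and DESeq2, 1 with the pseudogene share, and 3 to 4 with each library left out. Of all 14271 genes tested, 4088 were called in the main fit of that comparison. The same scalings called 3513, 3244 and 3755, the pseudogene share 2903, and the fits with each library left out 2831 to 4611. The cause of these changes was not tested.

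In 19 cases a value changed sign, none of them a call. Atf4 in bone marrow was 0.0113 with array weights and ran from -0.145 to 0.0163 with each library left out. Between the sources in WT, Ddit3 was 0.0497 with median-of-ratios scaling, 0.0830 with quantile normalization, 0.0486 with array weights, 0.0163 with edgeR and 0.00794 with DESeq2, and -0.206 to 0.187 with each library left out. The same omissions gave -0.00286 to 0.142 for Psat1 and -0.334 to 0.443 for Ddit4. Between the sources with ETV6-RUNX1, Mthfd2 was 0.0345 with median-of-ratios scaling, 0.00921 with edgeR, 0.0145 with DESeq2 and 0.00304 with the pseudogene share, where Atf4 was 0.0822.

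The genes called over the whole table were 2763 in bone marrow against 1601 in the fit of 6 libraries and 1520 to 2924 with each library left out; 1311 for the interaction against 504 to 3637; 1591 between sources in WT against 868 to 4401. Calls with ETV6-RUNX1 were higher in 57.6% of cases in fetal liver and 42.0% with quantile normalization, and in 74.5% in bone marrow and 48.5% to 52.0% under the 4 other scalings; for the interaction 60.6% became 74.5%, between sources 30.3% became 41.0% in WT and 36.3% became 58.7% with ETV6-RUNX1, all with median-of-ratios scaling. The sign of each of the 10 genes' genotype effects was the same under these 4 scalings in both sources. Deviations from the group mean of libraries with the same replicate number correlated at -0.0850 to 0.221 in the fetal liver and -0.404 to 0.118 in the bone marrow comparison. With 3 libraries a group, these values cannot decide whether the replicate numbers pair the libraries. With the replicate block, 7 members were called in each genotype comparison and 3 between sources with ETV6-RUNX1. Ddit4 has no value with a mean of at least 5 CPM, which it does not reach, and the interaction needs all 12 libraries.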
